A study of Bos indicus with 9 samples.

Results

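The stretch of chromosome 11 around POMC and DNMT3A held 71 of the 140923 open chromatin peaks listed for hypothalamus, muscle, and liver of Brahman heifers. Its members are all peaks that overlap chr11:73500000-74500000 on the cattle assembly ARS-UCD1.2, a window of 1 Mb, and they were taken by position alone. The window itself was chosen with earlier results of these data known. Hypothalamus contributed 49 of its 78528 peaks, muscle 14 of its 40104, and liver 8 of its 22291. All positions are counted from 1 on that build.

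Open chromatin was measured by ATAC-seq, in which a transposase inserts adapters into DNA that nucleosomes leave free, so that a pile of fragments marks an open region. Libraries came from frozen hypothalamus, muscle, and liver of the same 3 unrelated, post-pubertal Brahman heifers, an indicine (zebu) breed, with 9 libraries in all and no treatment. The labels set the groups apart by tissue alone, but the ratio of nuclei to transposase was tuned for each sample, so a difference in transposition cannot be told apart from tissue. Each tissue was ground whole, so its cell types were mixed. In such bulk tissue, fewer cells with an open site and a less open site in every cell cannot be told apart. The 3 heifers of a tissue were combined during peak calling, so each tissue has a single list without values for a single heifer. For that reason the tissues could not be tested against each other, and intervals below (Wilson, 95%) cover counting error over peaks only.

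POMC encodes pro-opiomelanocortin, a precursor that prohormone convertases cut into melanocortins, ACTH, and beta-endorphin. In the arcuate nucleus of the hypothalamus, POMC neurons respond to leptin, and the alpha-MSH they release acts on the melanocortin receptor MC4R to lower food intake. The pituitary is the other main site of POMC expression, where corticotropes process the precursor to ACTH. DNMT3A encodes a methyltransferase that places new methyl groups on cytosines and is expressed in many tissues, neurons among them.

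The deposited peak lists name no genes, and the copy of the study's annotated lists read here was shortened and held no row of the window. In the RefSeq annotation of another indicine assembly (a Sahiwal x Tharparkar animal), POMC and DNMT3A are direct neighbors among the protein-coding genes of chromosome 11. The order there is ASXL2, DTNB, DNMT3A, POMC, EFR3B, DNAJC27, ADCY3, CENPO, PTRHD1, and NCOA1. ADCY3 encodes an adenylyl cyclase of neuronal primary cilia that has itself been linked to body weight, and NCOA1 a coactivator of steroid and other nuclear receptors. DTNB encodes beta-dystrobrevin of the dystrophin complex, ASXL2 a Polycomb-related chromatin protein, and CENPO a kinetochore subunit. Coordinates of that assembly do not carry over to ARS-UCD1.2. Accordingly, no peak was assigned to a gene, start site, exon, or intron, and the peaks are described by position.

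Each peak has a position and 2 strength measures from the peak caller. The summit −log10 p is the strength at the highest point, combined over the heifers and not corrected for multiple tests. The area under the curve (AUC) sums the −log10 p above the calling threshold along the peak, so long peaks gain AUC. Neither was scaled between tissues, so values were compared between lists as percentiles, the percent of peaks of the same list with the same or a lower value. The lists carry no read counts, and the depth behind each peak is unknown here.

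Open regions covered more of the window in hypothalamus than in muscle or liver, as 38266 bp, 10651 bp, and 4712 bp, respectively, in the same order as the lengths of the lists. The median window of 1 Mb had 15384 bp, 3772 bp, and 1115 bp covered, in that order. Across 2594 windows of 1 Mb on chromosomes 1 to 29 and X, the median window held 21 hypothalamus, 7 muscle, and 2 liver peaks. The 49 hypothalamus peaks were as many as or more than in 84.3% of windows, the 14 muscle peaks than in 73.3%, and the 8 liver peaks than in 86.5%. All counts were thus above the median window of their own list, and none was near its maximum of 143, 134, and 127. The 198 other windows with a hypothalamus count within 5 of this one had a median of 17.5 muscle peaks (range 1 to 60) and 6 liver peaks (range 0 to 41). The counts of 14 and 8 lay inside both ranges. With 22291 peaks kept per list, the strongest by summit, the hypothalamus count fell to 14, against 9 in muscle and 8 in liver. That number was equal over whole lists, unplaced sequences included. Only 12063 of the liver peaks lay on chromosomes 1 to 29 and X, and the lists were not made equal there.

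**Figure D1:**
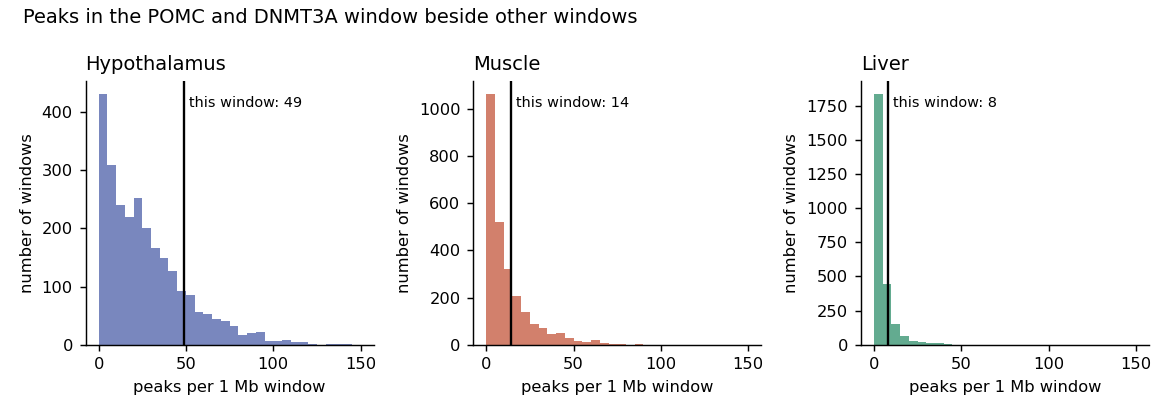
Number of peaks per 1 Mb window (x axis) against number of windows (y axis) on chromosomes 1 to 29 and X for each tissue, in bins of 5 peaks. The black line marks the POMC and DNMT3A window, with 49 hypothalamus, 14 muscle, and 8 liver peaks, above the median window of each list.

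The neighboring windows of 1 Mb had 65 hypothalamus, 35 muscle, and 15 liver peaks on the side of lower coordinates and 37, 19, and 5 on the other side. Muscle thus had fewer peaks here than in either neighbor. Within the window, the fullest 100 kb lay at chr11:73900001-74000000 in every tissue, with 12 summits in hypothalamus, 5 in muscle, and 3 in liver. Over 26242 such bins, 96.8%, 94.8%, and 97.7% had as many or fewer, in the same order. The fullest of 10 bins was here set beside single bins, so a high standing comes in part from that choice. Of the 26242 bins, 35.4%, 61.3%, and 76.9% held no summit, in the same order. The longest stretch between hypothalamus peaks ran for 132405 bp, from 73714220 to 73846624.

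With 1 bp of overlap as the criterion, all 14 muscle peaks and all 8 liver peaks of the window overlapped a hypothalamus peak. On chromosomes 1 to 29 and X, 61% of muscle and 85.1% of liver peaks did. By contrast, 35 of the 49 hypothalamus peaks (71.4%, interval 57.6 to 82.2) overlapped neither other list. On the same chromosomes 74.8% of hypothalamus peaks had no overlap (67.9% of the whole list), so the share in the window was close to that of the list. For muscle the count without overlap was 0 of 14, which allows a share of up to 21.4% (3 counts of the total, a limit for counts of 0 apart from the Wilson intervals), beside 36% of muscle peaks on these chromosomes and 28.5% of the whole list. For liver it was 0 of 8, which allows up to 37.5%, beside 7.78% and 9.93%. Peaks of a single window are not independent draws, and the muscle count moved to 2 of 9 (22.2%, interval 6.32 to 54.7) with the same number of peaks per list. When overlap had to reach 50% of both peaks, 5 of 14 muscle peaks had no overlap (35.7%, 16.3 to 61.2). For liver it was 2 of 8 (25%, 7.15 to 59.1). Overlap of every muscle and liver peak thus held for the 1 bp criterion and not for this one. Shares over all peaks were computed for 1 bp of overlap in the full lists only. None can be set beside these counts or the 2 of 9.

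Hypothalamus peaks fell into 7 that overlapped both other lists, 6 that overlapped muscle alone, 1 that overlapped liver alone, and the 35 without overlap. In all, 13 hypothalamus peaks overlapped muscle (26.5%, beside 24.3% on chromosomes 1 to 29 and X) and 8 overlapped liver (16.3%, beside 13.8%). Muscle and liver overlapped in 7 of 14 muscle peaks, beside 33.4%, and in 7 of 8 liver peaks, beside 86.4%. The 7 in all lists were 14.3% of the hypothalamus peaks, beside 12.9%. Of the muscle peaks 50.0% overlapped both other lists, beside 30.4%, and of the liver peaks 87.5%, beside 79.3%. The interval for muscle, 26.8 to 73.2, included the share of its list, as did those for hypothalamus (7.10 to 26.7) and liver (52.9 to 97.8).

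**Figure D2:**
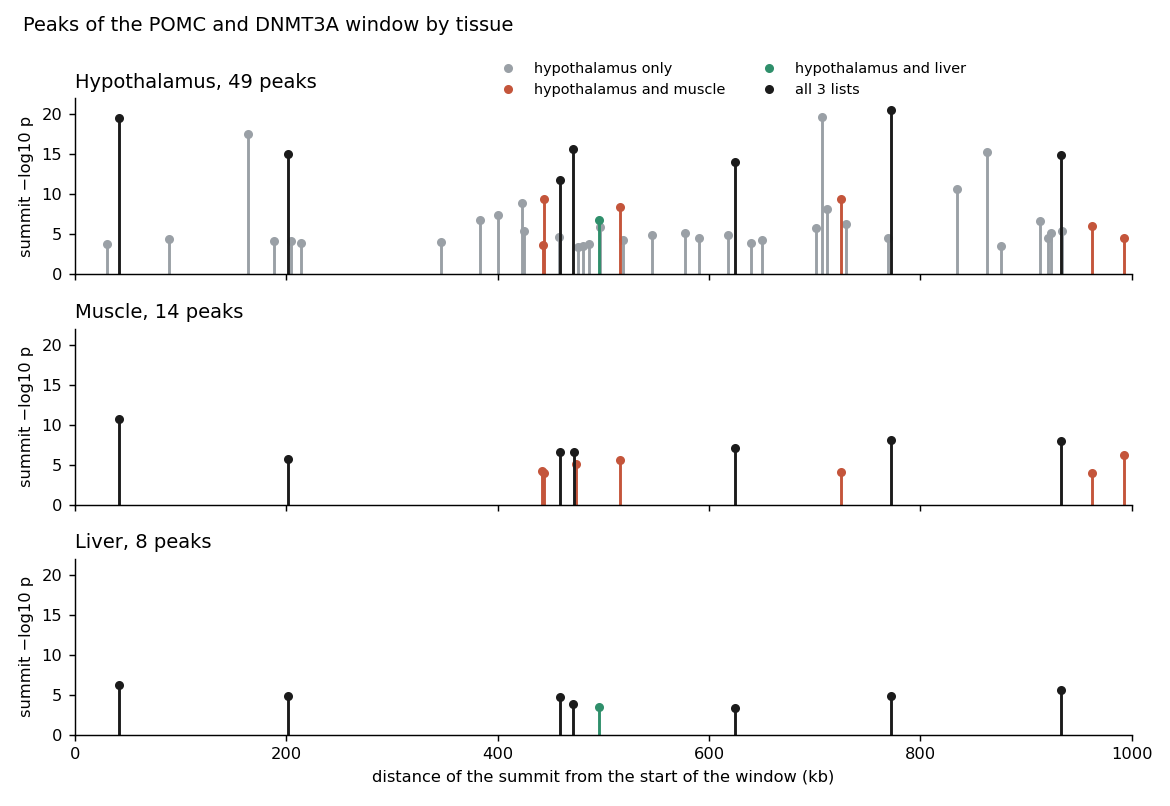
Summit −log10 p (y axis) of each peak against the distance of its summit from the start of the window in kb (x axis), by tissue. Colors give the lists a peak overlaps. The 7 regions open in all lists rise to between 11.8 and 20.6 in hypothalamus, and tall gray lines mark hypothalamus peaks with no overlap.

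The 7 regions open in all tissues were spread over the window and were all among the 10 hypothalamus peaks with the highest summits. In hypothalamus their summit −log10 p ranged from 11.8 to 20.6 with a median of 15.1, and the median percentile was 90.5. In muscle the range was 5.75 to 10.7 with a median percentile of 73.8. In liver it was 3.37 to 6.19 with a median percentile of 45.1, so these regions were strong in the hypothalamus list and middling in the liver list. Over chromosomes 1 to 29 and X, peaks in all 3 lists had median percentiles of 91.5, 78.0, and 45.0 in the same order, values near those of the window. The stretches covered in all lists were 331 to 990 bp long, 4334 bp in total.

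The region with the highest hypothalamus summit of the window lay at chr11:74271860-74273479. Summits there reached a −log10 p of 20.6 (percentile 98.1) in hypothalamus, 8.05 (81.8) in muscle, and 4.91 (46.4) in liver, with AUC values of 12136, 2093, and 743. Muscle and liver peaks here, chr11:74272202-74273180 and chr11:74272406-74272948, lay inside the hypothalamus peak with summits 61 and 66 bp from its own.

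The shared region nearest the start of the window ranked high in the hypothalamus and muscle lists and lower in the liver list. Hypothalamus had chr11:73540613-73542980, of 2368 bp, with a summit of 19.6 (percentile 97.2) and an AUC of 11286. Muscle had chr11:73541076-73542734 with a summit of 10.7 (percentile 93.7), the only muscle peak of the window above percentile 90, beside 6.58% of muscle peaks on chromosomes 1 to 29 and X. Liver had chr11:73541534-73542219 with a summit of 6.19 (percentile 69.3), the highest liver summit here, and no liver peak was above percentile 90, beside 1.83%. The AUC of this liver peak was at percentile 81.4. Among liver peaks on chromosomes 1 to 29 and X alone, its summit was at percentile 84.2. Hypothalamus and muscle summits stood 1 bp apart, and the liver summit stood 148 bp from that of hypothalamus.

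The broadest region was the 4208 bp hypothalamus peak chr11:73970576-73974783, which ranked 683 by length and 564 by AUC (19955) in the list of 78528. Its summit −log10 p was 15.7 (percentile 91.6). Muscle had separate peaks under it, chr11:73970934-73972865 with a summit of 6.58 (percentile 67.8) and chr11:73973891-73974444 with a summit of 5.02 (percentile 43.6). Liver had chr11:73971287-73972276, the longest liver peak of the window at 990 bp, yet its summit of 3.84 was at percentile 14.6. The liver summit lay 27 bp from the hypothalamus summit, whereas the muscle summits lay 642 and 2694 bp away. Whether the place of a summit was steady between heifers cannot be seen in pooled lists.

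Another region in the same 100 kb bin was compact. Hypothalamus chr11:73958488-73959514 had a summit of 11.8 (percentile 82.8), muscle chr11:73958702-73959032 one of 6.63 (68.4), and liver chr11:73958691-73959051 one of 4.71 (41.3). The 3 summits lay within 6 bp of each other. A short hypothalamus peak at chr11:73958049-73958377 with a summit of 4.71 stood 110 bp before it and overlapped no other list.

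At chr11:73700931-73702576 hypothalamus had a summit of 15.1 (percentile 90.5), muscle, at chr11:73701166-73702082, one of 5.75 (56.6), and liver, at chr11:73701277-73701805, one of 4.86 (45.1). At chr11:74432683-74433608 the summits were 14.9 (percentile 90.1), 8.0 (81.4), and 5.63 (61.0), and those of hypothalamus and muscle fell on the same base. Muscle had chr11:74432800-74433564 and liver chr11:74432955-74433535 there. The hypothalamus peak, of 926 bp, had the highest AUC per bp of the hypothalamus peaks in the window, at percentile 99.3 of the list. At chr11:74123533-74125140 the hypothalamus summit was 14.1 (percentile 88.3), that of muscle, at chr11:74123881-74124918, 7.13 (73.8), and that of liver, at chr11:74124052-74124725, 3.37 (3.25). The last was the lowest liver summit of the window, 85.0 percentile points below the hypothalamus peak over it.

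When only peaks with summits of 5 or more were kept in every list, only chr11:73541534-73542219 and chr11:74432955-74433535 stayed covered in all tissues, since the other 5 liver peaks among the 7 had summits below 5. A liver percentile depends on the peaks it is set against. Over chromosomes 1 to 29 and X alone, the median percentile of the 8 liver summits was 56.5, and over the whole list, where many peaks lie on unplaced sequences, it was 43.2 (interval of the median 3.25 to 69.3).

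**Figure D3:**
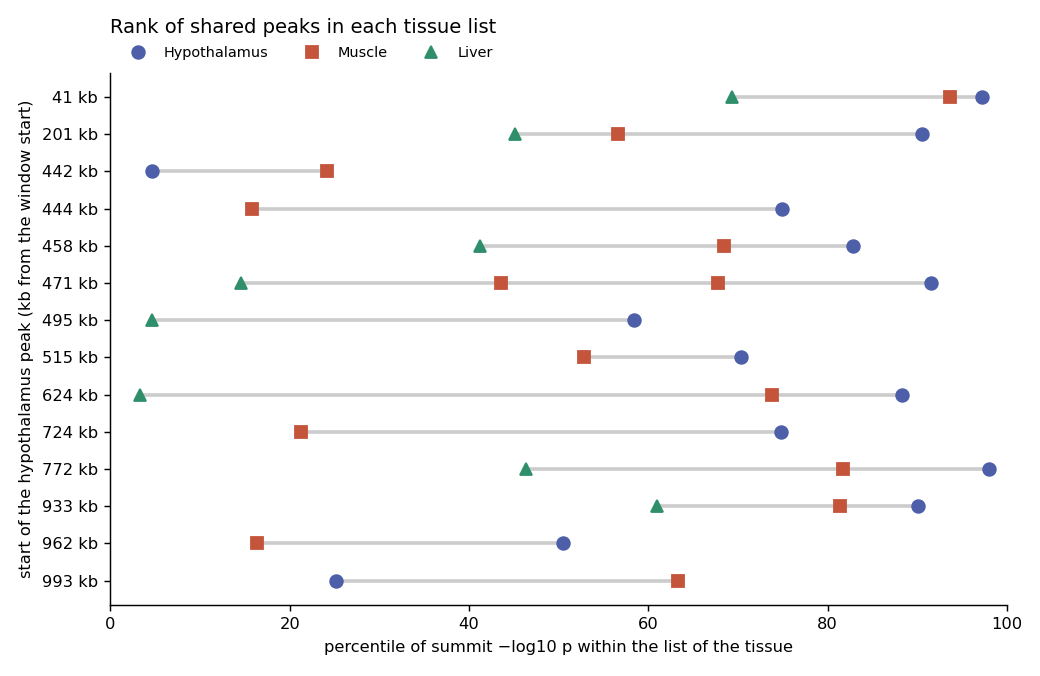
Percentile of summit −log10 p within the list of each tissue (x axis) for the 14 hypothalamus peaks shared with muscle or liver (y axis, start of the hypothalamus peak in kb from the window start). Hypothalamus is to the right in all rows with liver and in all with muscle except those at 442 and 993 kb, where muscle is to the right.

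In most overlapping pairs the summits lay within 100 bp of each other, while peak lengths differed between tissues. All 8 liver peaks lay inside the hypothalamus peak they overlapped, beside 86.6% of such pairs on chromosomes 1 to 29 and X, and 12 of 14 muscle peaks did, beside 75.7%. Liver lay inside muscle in 6 of 7 pairs, beside 66.8%. Hypothalamus peaks were a median of 2.91 times as long as the liver peaks under them and 1.99 times as long as the muscle peaks. These ratios were not computed for pairs on chromosomes 1 to 29 and X. Median peak lengths there were 567 bp in hypothalamus, 521 bp in muscle, and 490 bp in liver over all peaks. Summits of hypothalamus and liver were a median of 20.5 bp apart and at most 148 bp, with 7 of 8 within 100 bp, beside 73.7%. For hypothalamus and muscle the median was 43 bp and the maximum 2694 bp, with 10 of 14 within 100 bp, beside 71.2%. The hypothalamus percentile was higher than that of liver in 8 of 8 pairs, beside 88.7%, and than that of muscle in 12 of 14, beside 82.2%. The muscle percentile was higher than that of liver in 7 of 7, beside 84.6%. Of these 7 pairs, 5 had summits within 100 bp, beside 76.5%, and the largest distance was 669 bp.

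**Figure D4:**
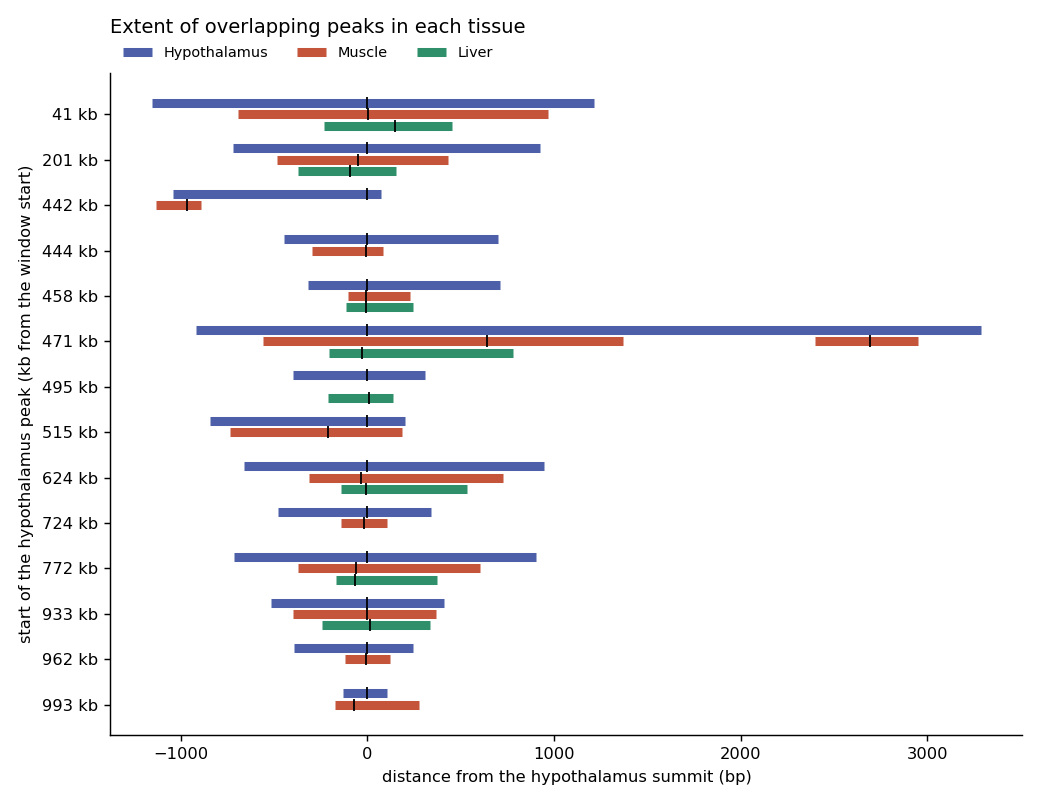
Start and end of overlapping peaks in each tissue as distance from the hypothalamus summit in bp (x axis), for the 14 shared hypothalamus peaks (y axis, start of the hypothalamus peak in kb from the window start). Black ticks are summits. Liver peaks lie inside hypothalamus peaks throughout, and muscle extends past hypothalamus at 442 and 993 kb.

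The pairs in which muscle ranked higher were both at the weak end of the hypothalamus list. At the far end of the window, the muscle peak chr11:74492596-74493042 had a summit of 6.22 (percentile 63.4), an AUC of 1170 (percentile 68.1), and a length of 447 bp. The hypothalamus peak chr11:74492639-74492875 inside it had a summit of 4.49 (percentile 25.2), an AUC of 305 (percentile 15.5), and a length of 237 bp. This was the only shared place where the muscle peak was longer than the hypothalamus peak, and liver had no peak. With a summit of at least 5 required in every list, it was the only 1 of 10 muscle peaks of the window with no overlap. The cut removed the hypothalamus peak inside it, and no share over all muscle peaks was computed at that cut.

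The other such muscle peak, chr11:73942186-73942427, had a summit of 4.22 (percentile 24.2). It overlapped the edge of hypothalamus chr11:73942279-73943393, whose summit of 3.63 was at percentile 4.69, and the summits lay 969 bp apart. By AUC the order turned, with the hypothalamus peak at percentile 35.9 and the muscle peak at 23.5. This long and low hypothalamus peak, of 1115 bp, was followed after 166 bp by chr11:73943560-73944709 with a summit of 9.40 (percentile 74.9). Muscle had only a weak peak under the latter, chr11:73943712-73944090, with a summit of 3.93 (percentile 15.8).

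The remaining muscle peaks without liver lay under hypothalamus peaks of middle strength. At chr11:74014769-74015813 hypothalamus had a summit of 8.44 (percentile 70.3) and muscle, at chr11:74014877-74015796, one of 5.51 (52.9), over nearly the same length. At chr11:74223992-74224816 the summits were 9.39 (percentile 74.8) and 4.12 (21.3), and at chr11:74462330-74462966 they were 6.02 (50.4) and 3.95 (16.4). Muscle peaks at the latter places, chr11:74224330-74224576 and chr11:74462604-74462844, were 247 and 241 bp long. The only region shared by hypothalamus and liver without muscle was chr11:73995282-73995988, with a hypothalamus summit of 6.76 (percentile 58.4). Its liver peak, chr11:73995467-73995814, had a summit of 3.46 (percentile 4.60) and was the shortest liver peak of the window at 348 bp.

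Most hypothalamus peaks without overlap were short and weak, but a few were among the strongest of the window. The 35 had a median summit of 4.90 (range 3.48 to 19.7), a median percentile of 33.7 (interval of the median 20.1 to 47.0), and a median length of 341 bp. Hypothalamus peaks without overlap on chromosomes 1 to 29 and X had medians of 5.35, percentile 41.3, and 475 bp. Of the 35, 25 were below percentile 50 of the hypothalamus list, beside 60.2% of the peaks without overlap on these chromosomes.

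The strongest of them was chr11:74205901-74207140, with a summit −log10 p of 19.7, second only to the region at chr11:74271860-74273479 in the window. It stood at percentile 97.3 of the hypothalamus list and ranked 163 among the 53103 peaks without overlap on chromosomes 1 to 29 and X. Its AUC was 7882 over 1240 bp. The nearest muscle peak was 17189 bp away and the nearest liver peak 65265 bp. Weaker hypothalamus peaks flanked it at chr11:74201287-74201489 (summit 5.74) and chr11:74210968-74211974 (summit 8.19), also without overlap.

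The next was chr11:73662977-73664297, with a summit of 17.6 (percentile 94.8), an AUC of 6948, and a length of 1321 bp. It ranked 540 among the peaks without overlap, and the nearest muscle and liver peaks were 36868 and 36979 bp away. It was followed by chr11:74362608-74363811, with a summit of 15.3 (percentile 90.8, rank 1295), an AUC of 5822, and 68988 bp to the nearest muscle peak. Before it lay chr11:74333542-74335362, with a summit of 10.6 (percentile 79.4) over 1821 bp, the longest peak without overlap in the window. All of these stayed without overlap when a peak within 1000 bp counted as shared.

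The share of hypothalamus peaks with overlap rose with summit strength, in the window and on chromosomes 1 to 29 and X. Summits of 10 or more occurred in 11 of 49 hypothalamus peaks, beside 23.3% on these chromosomes, in 1 of 14 muscle peaks, beside 5.09%, and in 0 of 8 liver peaks, beside 1.65%. Of the 11 in hypothalamus, 7 were shared (63.6%, interval 35.4 to 84.8), beside 64.4%. Of 17 from 5 to under 10, 5 were shared (29.4%, 13.3 to 53.1), beside 16.5%. Of 21 below 5, 2 were shared (9.52%, 2.65 to 28.9), beside 9.78%. Each interval included the share of the list. Peaks above percentile 90 numbered 8 of 49 in the window, beside 10.4% on these chromosomes, and 3 of these 8 had no overlap, beside 20.5% of such peaks on these chromosomes.

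**Figure D5:**
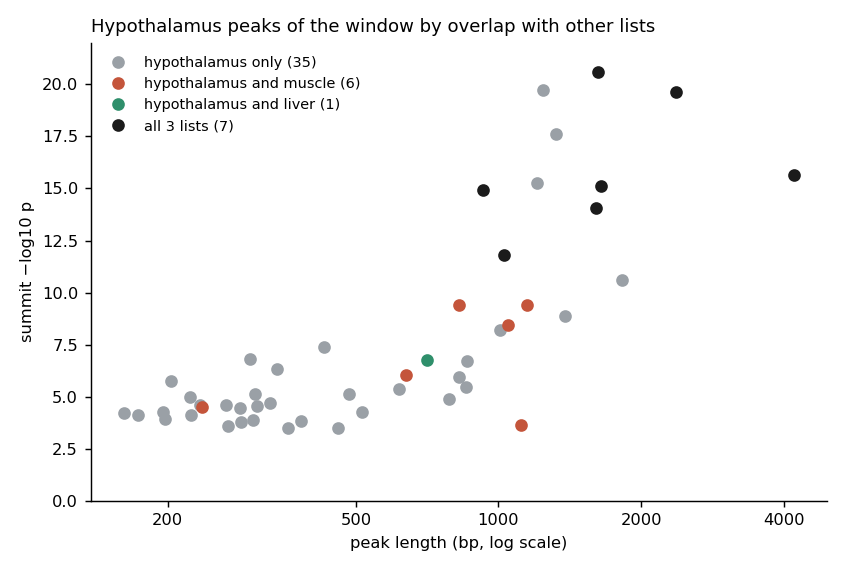
Summit −log10 p (y axis) against peak length in bp on a log scale (x axis) for the 49 hypothalamus peaks, colored by the lists they overlap. The 7 peaks in all lists are 926 bp or longer, and 3 hypothalamus-only peaks with summits of 15.3 to 19.7 stand among them.

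In the bin with the most peaks, chr11:73900001-74000000, 7 of the 12 hypothalamus peaks had no overlap, beside 74.8% on chromosomes 1 to 29 and X. The bin was picked by its count and no interval was computed, so no difference is read from these 12 peaks. The strongest of the 7 was chr11:73922461-73923844, with a summit of 8.87 (percentile 72.6) and an AUC of 3282 over 1384 bp. It was followed after 700 bp by chr11:73924545-73925399 with a summit of 5.44. The nearest muscle peak to chr11:73922461-73923844 was 18341 bp away. Just before the bin, chr11:73883483-73883780 and chr11:73899559-73899986 had summits of 6.79 and 7.37 in short peaks of 298 and 428 bp. Past the broad region, chr11:73975433-73975891, chr11:73980918-73981185, and chr11:73986328-73986709 had summits of 3.48, 3.57, and 3.83, all below percentile 9 of the list.

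Across the 49 hypothalamus peaks, the summit rose with length (Spearman's rho 0.76) and with AUC (rho 0.94), which share the same curve, so these are descriptions across peaks of a single list. For length, rho was 0.71 over the 14 muscle peaks but 0.19 over the 8 liver peaks. For AUC it was 0.90 and 0.95, in the same order. Over the window as a whole, the median percentile was 42.8 by summit (interval of the median 27.6 to 58.6) and 47.7 by AUC in hypothalamus. In muscle it was 60.0 (21.3 to 81.4) by summit and 66.6 by AUC. Each interval included 50, the median of the list, and the liver interval above did too.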

How the data were processed

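ATAC-seq was done on 3 tissues from each of 3 heifers. Alignment by the authors used HISAT2 on ARS-UCD1.2, with up to 10 places kept for a read, and Genrich 0.6.1 was used for peak calling (PCR duplicates removed, mitochondrial chromosome left out, p threshold 0.01), with the p values of the heifers combined by Fisher's method. The deposited lists hold, per peak, a signal value (AUC) and a −log10 p at the summit, as the authors' peak caller gave them. The score column deposited beside them, capped at 1000, was not used. Reads with several alignments count as fractions at each place, which can raise signal in repeats.

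Overlaps were computed with bedtools 2.31.1 (1 bp minimum), and percentiles and intervals with scipy 1.17.1 and numpy 2.4.6 (pandas 2.3.3 for tables, matplotlib 3.10.9 for plots) under python 3.11.15. Windows of 1 Mb started at multiples of 1 Mb plus 0.5 Mb. On simulated slots, 2000 of 2000 overlap classes were recovered. Simulated partners always overlapped and other peaks never did, so this checks the overlap code alone and says nothing of these peaks. Intervals of a median are binomial (order statistics).

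The window and the rules were chosen with earlier results of these data known. Text names every muscle and liver peak, and for hypothalamus the 10 highest summits and 5 largest AUC values. Other hypothalamus peaks were named after their values were seen. Peaks at gene starts, the appetite circuit, DNA methylation, and tissue and pituitary marker lists, and promoter sequences need gene positions or sequence of ARS-UCD1.2 over the whole lists. Only a shortened copy of the study's annotation was read, and these were not analyzed here, so the tissues were not checked against markers.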

Additional observations from a re-analysis of the deposited data

How the results depend on the processing

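The 16 results were recomputed under 54 alternatives, and 40 stayed within 1.5 times (counts) or within the interval of the value (shares and percentiles). Some of the 40 could not move. No peak crossed a window edge, so keeping peaks wholly inside the window changed nothing. The liver list set the number of peaks per list, so the liver count was fixed there. Liver intervals were wide, and a liver share without overlap of 25% still counted as the same as 0%. When only summits of 5 or more were kept, the counts were 28 in hypothalamus and 2 in liver, and 2 intervals were covered in all lists. With the same number of peaks per list, hypothalamus had 14 and muscle 9 peaks, and the share without overlap was 50.0% in hypothalamus and 22.2% in muscle. With reciprocal overlap of 50%, that share was 85.7% in hypothalamus and 35.7% in muscle (5 of 14 peaks). Neither setting was run over all peaks, so these shares have no share of the list beside them. By bp covered, the window stood at percentile 81.6 in hypothalamus and 78.8 in muscle, and among windows of chromosome 11 at 82.1, 66.0, and 81.1 in hypothalamus, muscle, and liver. Peaks up to 500 bp apart were also joined, chosen after seeing the data, which left 46 hypothalamus peaks.

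No paired analysis was possible because each list combines the heifers, and no fit without a heifer was made for the same reason. Alternatives that need gene starts were not run. A site below the calling threshold of a tissue has no value there, so a lack of overlap does not show that the site was closed. The lowest AUC in each list was 200, and some peaks of the window stood close to it. The liver peak chr11:74124052-74124725, in a region open in all lists, had an AUC of 232.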
